A study of Mus musculus with 30 samples.

Results

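Rgs2 and its relatives in the family of regulators of G protein signalling (RGS) were followed in mouse left ventricle. The members were 10 genes given by name (Rgs2, Rgs3, Rgs4, Rgs5, Rgs6, Rgs10, Rgs12, Rgs14, Rgs16 and Rgs19), out of 49671 genes counted in a peptide study and 56386 in an antibody study. They were chosen by name with their measured fold changes in both treatment comparisons known, so these fold changes are a description, and where a count of genes called includes a member, nothing is read from it. All 30 hearts came from male wild type C57BL6/J mice, and each library held the total RNA of 1 ventricle. In the peptide study, 7 mice were injected daily with recombinant human Aβ42 (Ab42 in the labels) and 7 with a peptide of the same residues in scrambled order (ScrAβ42), for 4 weeks. The labels give the age at the start as 12 weeks, and the study's methods as 10 to 12 weeks. The labels give the dose as 1 mg per day, whereas the study's methods use a smaller unit of mass, and this was not resolved. In the antibody study, 8 mice received 3D6, an antibody that neutralises Aβ, and 8 a control antibody. The methods describe a high-fat diet for both antibody groups, which the labels start when mice were 12 weeks old. The study takes its sequenced antibody hearts from mice on this diet for 4 months, with antibody once weekly. The series design instead describes mice that had been given Aβ42, so the sources differ on what both groups shared besides the antibody injections. This was not resolved.

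RGS proteins end signalling by heterotrimeric G proteins. A receptor loads the Gα subunit with GTP, and the RGS domain speeds the hydrolysis of that GTP, so that Gα and Gβγ come together again and the effector falls silent. In the heart, Gq carries signals from α1-adrenergic, endothelin and angiotensin receptors, Gi carries those from muscarinic receptors, and Gs carries those from β-adrenergic receptors. Rgs2, Rgs3, Rgs4, Rgs5 and Rgs16 form the R4 group, whose proteins are small and hold little more than the RGS domain, apart from the long forms of Rgs3, and Rgs2 among them acts mainly on Gq. Rgs6 belongs to the R7 group, which pairs with Gβ5 and quenches muscarinic signalling in pacemaker and atrial cells. Rgs10, Rgs12 and Rgs14 form the R12 group and Rgs19 belongs to the RZ group, both acting on Gi.

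Hearts of the peptide study had total counts of 4478991 to 6015767, and those of the antibody study 6397189 to 8310480. The mitochondrial genome took 12.9% to 22.2% of the counts in the former and 25.9% to 37.8% in the latter. Levels of a gene are given in CPM (counts for each 1000000 of the library) after scaling of the libraries by trimmed means (TMM). Defining cardiomyocyte markers were abundant in every heart, with a summed level of 42400 to 89940 CPM in the peptide study and 47640 to 59770 CPM in the antibody study. Hearts differed in the levels of markers of other tissues. The 5 atrial markers (Sln, Myl7, Myl4, Bmp10 and Mybphl) summed to 12.3 to 8387 CPM in the Aβ42 group, 3.81 to 3652 CPM in the ScrAβ42 group, 1.05 to 666 CPM in the 3D6 group and 0.819 to 2768 CPM in the control antibody group. Heart Abeta42_3457 stood apart, with the highest sums of atrial markers (8387 CPM) and smooth muscle markers (2481 CPM) of all 14 hearts of its study. In bulk ventricle, fewer cells of a type and less RNA per cell cannot be told apart. The mouse numbers name separate animals and are not shared between groups.

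Rgs5, long known as a marker of pericytes, was the most abundant member in every group. Levels of different genes were compared only per length, as counts per base of transcript scaled to a sum of 1000000 per heart. On that scale, the median level of Rgs5 was 283 in the Aβ42 group, 268 with ScrAβ42, 143 with 3D6 and 153 with control antibody, which was 67.6% to 73.7% of the sum of the family medians. Rgs2 was the second member in the peptide study, with a median level per length of 60.8 in the Aβ42 group and 31.1 in the ScrAβ42 group, and its range overlapped neither that of Rgs5 above it nor that of Rgs3 below it in either group. In the antibody study Rgs2 stood after Rgs5 and Rgs3, with 9.63 under 3D6 and 9.71 under control antibody, and Rgs3 had 15.6 and 19.2. There the ranges of Rgs3 and Rgs2 overlapped under 3D6 (lowest Rgs3 heart 13.6, highest Rgs2 heart 13.7) and stayed apart under control antibody (14.0 and 12.0).

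The remaining members lay close together. Rgs4, Rgs12, Rgs6, Rgs10 and Rgs19 had median levels per length of 5.11 to 13.3 in the Aβ42 group, 5.64 to 12.0 with ScrAβ42, 2.90 to 5.66 with 3D6 and 3.35 to 6.28 with control antibody. Every neighbouring pair among these 5 genes overlapped in range, so neighbours in the order are not resolved, although Rgs4 and Rgs19 at its ends stayed apart in both peptide groups (lowest Rgs4 heart 11.3 and 10.7, highest Rgs19 heart 10.1 and 7.19). Rgs14 and Rgs16 were near the limit of detection, at 0.335 to 1.18 per length, and they did not overlap with Rgs19 above them in any group. The 2 count tables were made and scaled separately, and levels were therefore not compared between the studies.

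**Figure D1:**
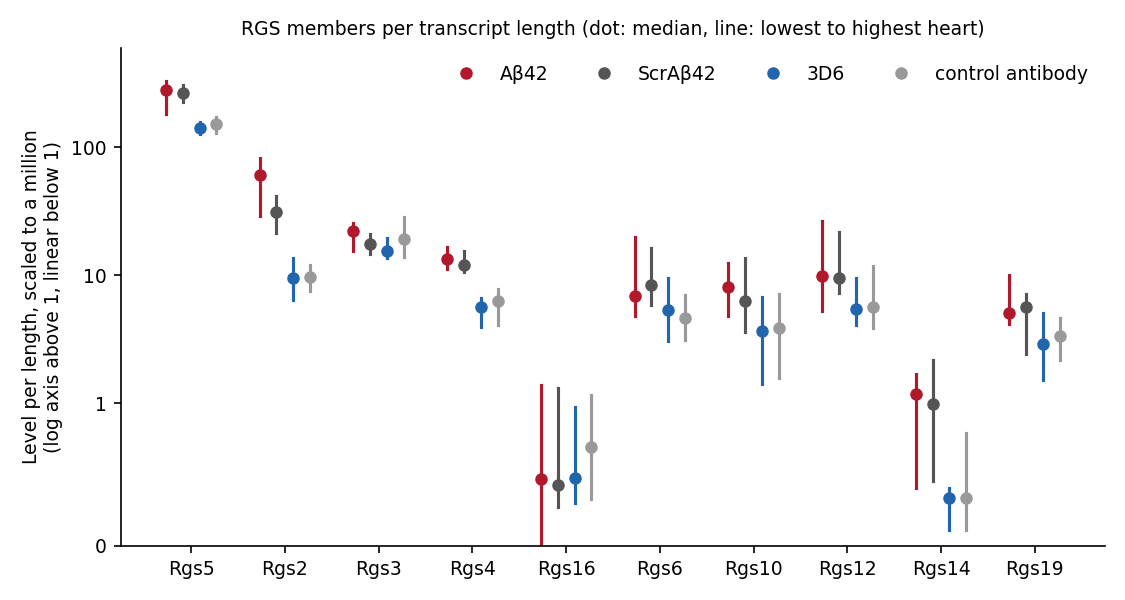
Level of each of the 10 RGS members per transcript length, scaled to a sum of 1000000 per heart (vertical axis, logarithmic above 1 and linear below), in the 4 groups. Dots are medians and lines run from the lowest to the highest heart (7, 7, 8 and 8 hearts). Rgs5 lies above all others, Rgs2 has medians of 60.8 and 31.1 in the peptide groups with ranges that overlap, and Rgs14 and Rgs16 lie near 1 or lower.

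Rgs2 lies on the minus strand of chr1:143999338-144004161 (GRCm38), and the annotation has no gene that overlaps it. Rgs5 (chr1:169655501-169695813, plus strand) and Rgs4 (chr1:169741477-169747642, minus strand) are neighbours further along the same chromosome, which also carries Rgs16 (chr1:153740349-153745468). The sequences just before the starts of Rgs2, Rgs4 and Rgs5 are shown because these R4 genes share a chromosome but differed in level and in how they varied between hearts. They are the RefSeq promoter windows of GRCm38.p6, read along the transcribed strand and cut before the annotated gene start (chr1:144004162-144004399 minus, chr1:169747643-169747892 minus and chr1:169655251-169655500 plus). Capitals mark matches on either strand to the core of a cAMP response element (TGACG, or CGTCA on the other strand), a GC box (GGGCGG, or CCGCCC) or a TATA box (TATAAA).
Rgs2: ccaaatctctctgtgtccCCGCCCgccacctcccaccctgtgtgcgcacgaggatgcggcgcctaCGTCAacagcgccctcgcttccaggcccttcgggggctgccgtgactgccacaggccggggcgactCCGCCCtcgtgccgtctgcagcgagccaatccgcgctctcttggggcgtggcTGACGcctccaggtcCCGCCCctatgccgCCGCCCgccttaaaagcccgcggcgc
Rgs4: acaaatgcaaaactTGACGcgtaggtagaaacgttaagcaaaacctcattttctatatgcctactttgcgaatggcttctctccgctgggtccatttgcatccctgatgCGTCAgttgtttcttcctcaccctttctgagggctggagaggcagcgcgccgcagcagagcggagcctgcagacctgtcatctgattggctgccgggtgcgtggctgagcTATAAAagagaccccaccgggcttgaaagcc
Rgs5: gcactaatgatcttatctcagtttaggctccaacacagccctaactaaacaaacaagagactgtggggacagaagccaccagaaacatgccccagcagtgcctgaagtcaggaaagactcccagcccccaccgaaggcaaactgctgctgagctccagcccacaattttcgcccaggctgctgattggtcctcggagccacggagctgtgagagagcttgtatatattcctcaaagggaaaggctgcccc
The Rgs2 window held 2 such cores, beginning 185 and 67 bases before the RefSeq start, and 4 GC boxes. The Rgs4 window held 2 cores, at 236 and 141 bases, and a TATA box 31 bases before the start, whereas none of these letters occurred in the Rgs5 window. Of 32851 mouse windows of 250 bases, 17.8% held the core, 32.7% a GC box and 12.4% a TATA box. The full element TGACGTCA, an E-box (CACGTG), an AP-1 site (TGANTCA) and a CArG box were also searched for and are in none of the windows shown, against 1.55%, 6.02%, 6.75% and 1.47% of all windows. The core is contained in the full element. A match of letters is a description and does not show binding.

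Rgs2 was higher in hearts of mice given Aβ42 than in hearts of mice given ScrAβ42. The ScrAβ42 hearts had 34.8, 36.4, 45.7, 49.4, 49.99, 52.7 and 58.9 CPM, with a mean of 46.8 ± 8.68 (SD, n = 7). The Aβ42 hearts had 45.6, 70.7, 77.2, 93.4, 96.3, 98.8 and 101 CPM, with a mean of 83.3 ± 20.2 (SD, n = 7). The groups overlapped through a single animal, heart Abeta42_3452 at 45.6 CPM, and the other 6 Aβ42 hearts lay above every ScrAβ42 heart. At least 6 of 7 treated hearts above every control was seen for 44 of the 11985 genes tested, 0.367%. The values rest on 221 to 682 reads per heart with Aβ42 and 146 to 334 with ScrAβ42.

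The ratio of the means was 1.78, and the fitted log2 fold change was 0.83 (SE 0.16, 2 SE either side from 0.50 to 1.16). Leaving out each heart in turn gave log2 fold changes between 0.77 and 0.93, the highest without heart Abeta42_3452. No gene of the 11985 tested passed an adjusted p of 0.05 with edgeR in this study (0 genes), while an unadjusted p under 0.05 was reached by 780 (6.51%). With Aβ42, 431 of these were higher (3.6%) and 349 were lower (2.91%), a balance that turned to 302 of 883 higher with the atrial score as a covariate and 257 of 608 higher without heart Abeta42_3457. Of the 8 members tested, 1 was among the higher genes, Rgs2, and 0 among the lower. Limma-voom also called 0 genes, and DESeq2 called 12 genes (0.1%), of which Rgs2 was one. Since the contrast was known when the members were named, nothing is read from these counts.

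**Figure D2:**
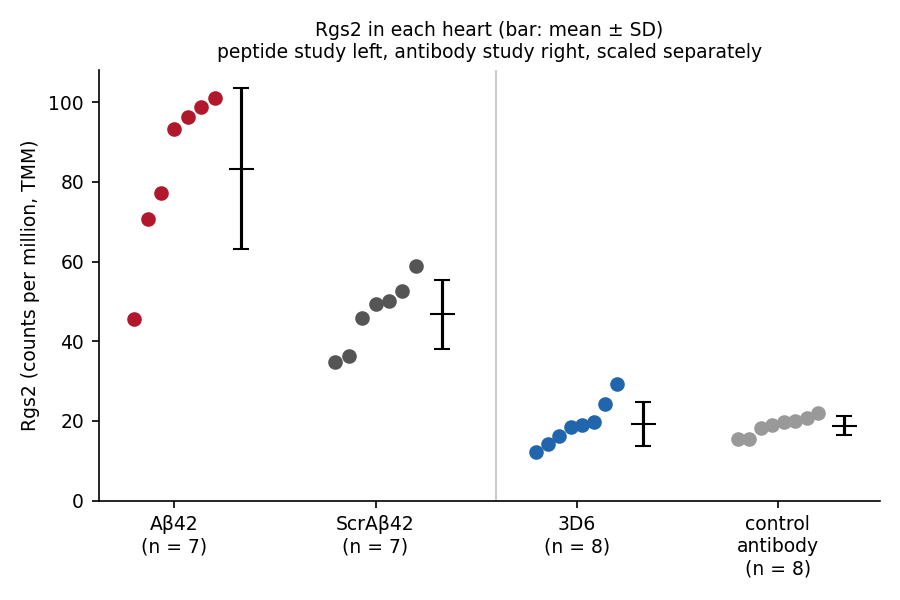
Rgs2 in each of the 30 hearts in CPM after TMM scaling (vertical axis), by group (horizontal axis), with 1 point per heart and the mean ± SD as a bar beside each group. In the peptide study 6 of 7 Aβ42 hearts lie above the highest ScrAβ42 heart (58.9), and the 3D6 hearts (12.2 to 29.4) enclose the control antibody hearts (15.3 to 21.9). The studies were scaled separately.

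Markers of other tissues were fitted higher or lower with Aβ42, but 0 of them passed an adjusted p of 0.05 with edgeR. At an unadjusted p under 0.05 with edgeR, 1 of 5 atrial (Bmp10) and 1 of 7 smooth muscle markers (Cnn1) were higher. So were 2 of 5 adipocyte markers (Plin1 and Ucp1) and 1 of 8 endothelial markers (Emcn), and 0 in the other marker lists. Of all genes tested, 3.6% were higher and 2.91% lower at that p. Lists with the largest median differences are given first beside the Rgs2 values. Of the 5 atrial markers, all 5 were fitted higher with Aβ42 and none was at 0 throughout, and 5 of 7 Aβ42 hearts against 1 of 7 ScrAβ42 hearts had an atrial marker sum above 100 CPM. The 6 peptide hearts with high atrial scores, 5 of them given Aβ42, had a median of 85.25 CPM of Rgs2, and the 8 with low scores, 6 of them given ScrAβ42, a median of 47.9 CPM. Heart Abeta42_3452, the lowest of its group in Rgs2, had an atrial sum of 12.8 CPM. Heart Abeta42_3456 had 101 CPM of Rgs2 with an atrial sum of 12.3 CPM, and heart ScrAbeta42_3448 had 49.4 CPM of Rgs2 with an atrial sum of 3652 CPM. When the atrial score entered the fit, Rgs2 had a log2 fold change of 0.71 (SE 0.18). Smooth muscle markers summed to 266 to 2481 CPM with Aβ42 and 287 to 567 CPM with ScrAβ42 (7 of 7 fitted higher). The 2481 CPM came from heart Abeta42_3457, and the other Aβ42 hearts had 266 to 550 CPM, not above the ScrAβ42 hearts. Without heart Abeta42_3457 the log2 fold change of Rgs2 was 0.80. Adipocyte markers summed to 0.619 to 640 CPM and 0.193 to 86.95 CPM (5 of 5 tested fitted higher), and blood and platelet markers to 563 to 5064 CPM and 814 to 15910 CPM (6 of 7 tested fitted lower). The 640 CPM of adipocyte markers also came from heart Abeta42_3457, and the next Aβ42 heart had 176.5 CPM. Smaller median differences were seen for skeletal muscle (−0.25, 6 of 7 fitted lower), pericyte (−0.23, 5 of 7 lower), macrophage and lymphocyte (−0.15, 5 of 6 lower) and cardiomyocyte markers (−0.11, 6 of 8 lower), and the endothelial and fibroblast medians were −0.02 and 0.02. The part of these markers in the Rgs2 difference was not tested.

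In the antibody study, the group means of Rgs2 differed by less than the spread between hearts. The control antibody hearts had 15.3 to 21.9 CPM (median 19.5, mean 18.8 ± 2.38, SD, n = 8). The 3D6 hearts had 12.2 to 29.4 CPM (median 18.6, mean 19.2 ± 5.54, SD, n = 8), and thus enclosed the control range. Of the 8 hearts given 3D6, 2 lay above every control heart and 2 below every control heart. The log2 fold change was 0.03 (SE 0.15, 2 SE either side from −0.27 to 0.32). Its sign was not stable, with −0.09 without heart 3D6_24 and 0.10 without heart 3D6_20. Total count scaling and limma-voom also turned it, to −0.02 and −0.01.

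The R4 relatives of Rgs2 showed no comparable separation. Rgs3, which acts on Gq and Gi, had 28.2 to 40.4 CPM with Aβ42 and 23.95 to 34.3 CPM with ScrAβ42, with a log2 fold change of 0.17 (SE 0.10). In the antibody study, its fitted difference was −0.24 (SE 0.13), with 30.9 to 40.7 CPM under 3D6 and 30.2 to 63.1 CPM under control antibody. The 63.1 CPM came from heart Con_22 of the control antibody group, and the next heart of its group had 45.6 CPM. Without heart Con_22 the difference was −0.13 (SE 0.10), and with the mitochondrial share as a covariate it was −0.06 (SE 0.07), while total count scaling gave −0.30 (SE 0.15) and leaving out heart Con_8 gave −0.29 (SE 0.12).

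Rgs4, an inhibitor of Gq and Gi signalling, had 16.9 to 27.2 CPM with Aβ42 and 16.98 to 25.8 CPM with ScrAβ42 (log2 fold change 0.08, SE 0.12). This was 0.01 without heart Abeta42_3452 and 0.22 with the atrial score as a covariate. The antibody groups had 9.14 to 14.6 CPM with 3D6 and 7.66 to 16.7 CPM with control antibody (−0.16, SE 0.14). Rgs5 had means of 608 ± 167 CPM with Aβ42 and 607 ± 78.3 CPM with ScrAβ42 (SD, n = 7 each), so the peptide means differed by far less than the spread, at a log2 fold change of 0.00 (SE 0.17). With 3D6 the mean was 429 ± 25.1 CPM and with control antibody 460 ± 51.7 CPM (SD, n = 8 each), a log2 fold change of −0.10 (SE 0.08), which was −0.15 with the mitochondrial share as a covariate and −0.07 without heart Con_19. In that study none of the 8 hearts given 3D6 exceeded the control median of 463 CPM, and 1 lay below every control heart. How many of all genes tested had such a count was not determined, so nothing is read from it. Of the 7 pericyte markers, 6 were also fitted lower with 3D6, with sums of 355 to 506 CPM against 299 to 511 CPM and none at 0. All 8 endothelial markers (median log2 fold change −0.21, sums of 1004 to 1220 CPM against 1018 to 1959 CPM) and all 7 fibroblast markers (−0.12, 482 to 647 CPM against 512 to 787 CPM) were fitted lower too. Lower fits were also seen for 4 of 6 smooth muscle (−0.18), 6 of 7 macrophage and lymphocyte (−0.13) and 4 of 4 atrial markers tested (−0.97). The cardiomyocyte, blood and platelet, and skeletal muscle medians were −0.04, −0.05 and 0.01. At an unadjusted p under 0.05 with edgeR, the pericyte marker Vtn and the endothelial markers Pecam1 and Emcn were lower with 3D6, and none in the other marker lists. Of all genes tested, 2.32% were lower at that p. The part of these markers in the Rgs5 difference was not tested. Rgs16 passed no filter, with 0 to 10 reads per heart in the peptide study and 4 to 14 in the antibody study.

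In the fits without covariates, the members of the other groups varied more from heart to heart than between treatments. Rgs6 had 10.5 to 38.8 CPM with Aβ42 and 13.3 to 29.9 CPM with ScrAβ42 (log2 fold change 0.03, SE 0.27). Under 3D6 it had 8.77 to 23.1 CPM, and under control antibody 8.55 to 18.2 CPM (0.23, SE 0.20). The antibody difference of Rgs6 was 0.14 without heart 3D6_7 and 0.32 without heart 3D6_16. Rgs12, a large multidomain protein of the R12 group, had 14.0 to 48.0 CPM with Aβ42 and 18.7 to 45.1 CPM with ScrAβ42 (0.12, SE 0.24), and 14.1 to 26.3 CPM with 3D6 and 12.7 to 33.2 CPM with control antibody (−0.07, SE 0.17). Rgs10, a short member of the same group that is abundant in leukocytes and microglia, had 8 to 35 reads per heart in the peptide study and 6 to 34 in the antibody study, with log2 fold changes of 0.17 (SE 0.24) and −0.02 (SE 0.32). Rgs19 had 8 to 40 and 9 to 33 reads per heart, with log2 fold changes of 0.02 (SE 0.20) and −0.13 (SE 0.23). The latter was −0.25 without heart 3D6_20 and −0.01 with the mitochondrial share as a covariate. Rgs14 had 2 to 11 reads per heart in the peptide study and 1 to 7 in the antibody study, and was not tested.

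Across the 8 members tested, all 8 fitted differences with Aβ42 were above 0, from 0.00 to 0.83 with a median log2 fold change of 0.10, beside a median of 0.00 over all genes tested, although with limma-voom Rgs5 and Rgs6 fell below 0 (−0.03 and −0.05). With the atrial score as a covariate Rgs6, Rgs12, Rgs10 and Rgs19 were below 0 (−0.57, −0.38, −0.09 and −0.05). Leaving out single hearts also put some below 0, with the lowest values at −0.24 for Rgs6 (without heart Abeta42_3455), −0.09 for Rgs19 and −0.07 for Rgs12 (both without heart Abeta42_3457) and −0.07 for Rgs5 (without heart Abeta42_3452). With 3D6, 2 were above 0 and 6 below, with a median of −0.09 beside −0.01 over all genes tested, and total count scaling and limma-voom put Rgs2 below 0. The mitochondrial share as a covariate turned Rgs2 to −0.08 and Rgs10 to 0.36, and leaving out heart Con_15 turned Rgs12 to 0.10. Rgs10, at −0.02, also changed sign in other alternatives, up to 0.17 without heart Con_22. In the antibody study edgeR, DESeq2 and limma-voom each called 0 of the 12274 genes at an adjusted p of 0.05, with 447 genes (3.64%) at an unadjusted p under 0.05 in edgeR, 162 higher (1.32%) and 285 lower (2.32%), and 0 of the 8 members passed at either level with any of these tools. In 6 of 26 alternatives, 1 member had an unadjusted p under 0.05, Rgs3 in 3 of them, Rgs5 in 2 and Rgs4 in 1.

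**Figure D3:**
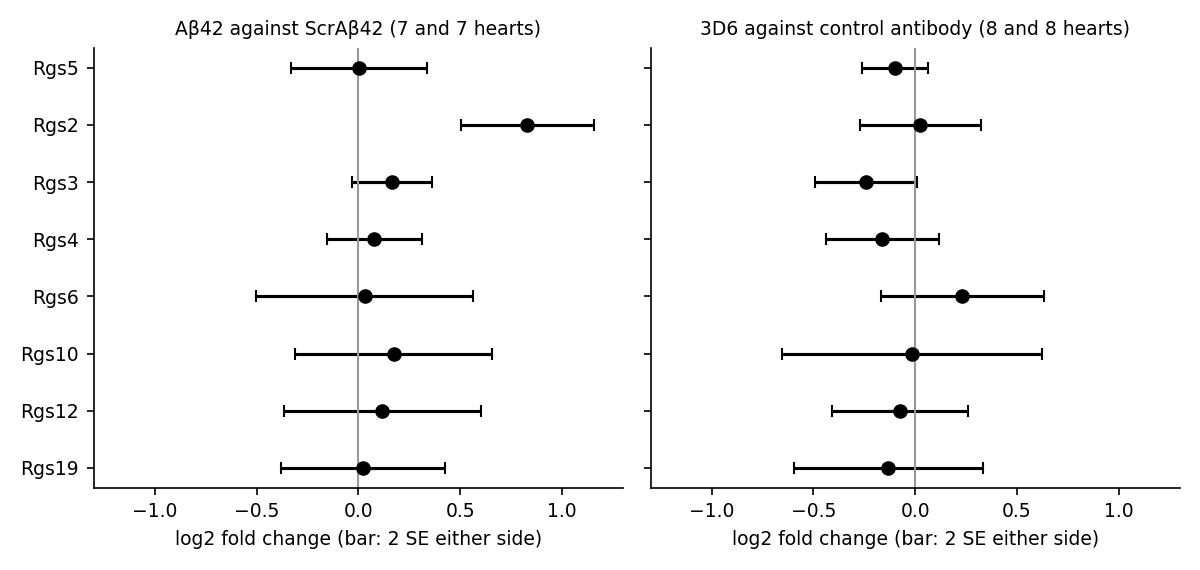
Fitted log2 fold changes (horizontal axes) of the 8 members that passed the filter on low counts, for Aβ42 against ScrAβ42 (left, 7 and 7 hearts) and 3D6 against control antibody (right, 8 and 8 hearts). Bars run 2 SE either side. In the peptide study Rgs2 stands at 0.83 and the other 7 between 0.00 and 0.17, and in the antibody study the 8 lie between −0.24 and 0.23.

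Spread between hearts of the same group differed among members, and is given beside the part that counting alone would make. The coefficient of variation of Rgs2 was 24.2% with Aβ42 and 18.5% with ScrAβ42, where counting alone gives 4.67% and 6.38%. The Aβ42 value includes heart Abeta42_3452 at 45.6 CPM, and the other Aβ42 hearts had 70.7 to 101 CPM. With the antibodies, the spread of Rgs2 was 28.9% with 3D6 and 12.7% with control antibody (8.57% and 8.71% from counting). Rgs5 varied by 27.4% with Aβ42, 12.9% with ScrAβ42, 5.86% with 3D6 and 11.2% with control antibody, of which counting makes 1.76% to 1.81%. Its lowest Aβ42 heart, Abeta42_3457, had 316 CPM, and the other Aβ42 hearts had 471 to 785 CPM. Rgs6 reached 51.4% with Aβ42 (counting error 9.75%) and Rgs12 38.6% (7.92%). Heart Abeta42_3455 had 38.8 CPM of Rgs6, and the other Aβ42 hearts had 10.5 to 23.1 CPM. For Rgs19 in the Aβ42 group, the 21.2% observed was no more than the 21.5% that counting gives. Reads are not independent molecules, so these counting errors are lower limits.

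A few members varied with markers of particular cells from heart to heart, and no relation passed in both studies. To leave the treatments out, deviations from the group mean of log2 CPM were set against deviations of a marker score, the mean z-score of a list, over the 14 hearts of the peptide study and the 16 of the antibody study. Of 232 relations of the 8 tested members with 15 and 14 lists, 7 had a Benjamini-Hochberg adjusted permutation p under 0.05 for Pearson's r, and none of these 7 kept it without the 2 hearts farthest from the median score. Rgs5 rose and fell with the pericyte markers in the peptide study, with r = 0.84 (permutation p = 0.00072, adjusted 0.028) and Spearman's rho = 0.82 (p = 0.00098, adjusted 0.043). The lowest Rgs5 value, 316 CPM, and the highest, 785 CPM, were in hearts Abeta42_3457 and Abeta42_3452, which also had the lowest and highest pericyte marker sums, 300 and 707 CPM, and without this pair r was 0.67 (adjusted permutation p = 0.28). In the antibody study the same relation was not seen, with r = −0.01 and rho = −0.11 (adjusted permutation p = 0.99 and 0.85).

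Rgs3 followed the blood and platelet markers in the antibody study, with r = 0.85 (permutation p = 4e-05, adjusted 0.0093) and rho = 0.85 (p = 0.0001, adjusted 0.023). Heart Con_22 had the highest Rgs3 value and the highest marker sum of its group, 2703 CPM, and the lowest mitochondrial share of the antibody hearts, 25.9%. Without heart Con_22 and heart 3D6_24 r was 0.87 (adjusted permutation p = 0.058). In the peptide study r was −0.15 (adjusted permutation p = 0.79). Rgs5 ran against the same markers in the antibody study, with r = −0.73 (adjusted permutation p = 0.036) and rho = −0.74 (adjusted 0.043), and r = −0.71 (adjusted 0.15) without the same pair of hearts. Rgs10 followed the smooth muscle markers there, with r = 0.79 (adjusted permutation p = 0.028) and rho = 0.71 (adjusted 0.12), and r = 0.73 (adjusted 0.15) without heart 3D6_4 and heart Con_18.

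In the peptide study Rgs12 was lower where the cardiomyocyte score was higher, with r = −0.83 (adjusted permutation p = 0.028) and rho = −0.66 (adjusted 0.14). It was higher where the fibroblast score was higher, with r = 0.84 (adjusted permutation p = 0.028) and rho = 0.76 (adjusted 0.11). Both relations fell short without heart Abeta42_3457 and heart ScrAbeta42_3448, at r = −0.62 (adjusted permutation p = 0.35) and r = 0.57 (adjusted 0.39). Rgs5 ran against the list of other RGS-domain genes and RGS partners, with r = −0.82 (adjusted permutation p = 0.028) and rho = −0.83 (adjusted 0.043), and r = −0.72 (adjusted 0.21) without hearts Abeta42_3457 and Abeta42_3455. By rho alone, Rgs6 also passed, against the endothelial score in the peptide study (rho = −0.83, adjusted permutation p = 0.043, r = −0.73 with 0.073) and with the effectors of G proteins in the antibody study (rho = 0.79, adjusted permutation p = 0.043, r = 0.71 with 0.073).

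Rgs12 in both studies and Rgs6 in the peptide study had their highest values in hearts with high sums of atrial markers. The Rgs12 values of 48.0 CPM in heart Abeta42_3457 and 45.1 CPM in heart ScrAbeta42_3448 came with atrial marker sums of 8387 and 3652 CPM, and the 33.2 CPM of heart Con_15 came with a sum of 2768 CPM. The highest Rgs6 values of the peptide study, 38.8 CPM in heart Abeta42_3455 and 29.9 CPM in heart ScrAbeta42_3448, came with 4690 and 3652 CPM. With the antibodies, the highest Rgs6 values were 23.1 CPM in heart 3D6_7 and 21.5 CPM in heart 3D6_4, whose atrial sums were 529 and 1.11 CPM. The atrial scores fell into 2 clusters in each study, so no pooled correlation is given. The values within a cluster mix the treatments, without subtraction of group means. Within the 6 peptide hearts with scores of 0.27 to 1.52, r was 0.91 for Rgs6 (exact permutation p = 0.017, adjusted over 12 relations 0.20) and 0.77 for Rgs12 (exact permutation p = 0.078, adjusted 0.31). Within the 8 peptide hearts with scores of −0.95 to −0.41, r was 0.61 for Rgs6 and −0.28 for Rgs12 (exact permutation p, adjusted, 0.31 and 0.79). Within the 6 antibody hearts with scores of 0.79 to 1.92, r was 0.89 for Rgs12 (exact permutation p = 0.042, adjusted 0.25) and 0.33 for Rgs6. Within the 10 antibody hearts with scores of −0.90 to −0.18, r was −0.52 for Rgs12 and −0.34 for Rgs6 (permutation p, adjusted, 0.39 and 0.69). Without the 2 hearts farthest from the median score, these values for the high-scoring hearts became 0.75 and 0.96 with the peptides, and 0.44 for Rgs12 and 0.95 for Rgs6 with the antibodies. Those for the low-scoring hearts became 0.26 for Rgs6 and −0.29 for Rgs12 with the peptides. With the antibodies they became 0.08 for Rgs12 and −0.19 for Rgs6. For Rgs2, r was 0.10 in both peptide clusters, and 0.22 and 0.00 in the high-scoring and low-scoring antibody hearts. Without the 2 hearts farthest out, r of Rgs2 was −0.22 and 0.25 in the high-scoring and low-scoring peptide hearts. In the antibody hearts it was then −0.05 and 0.27. These values rest on few hearts and none of the 12 passed after adjustment. When the atrial score entered the fit, the peptide log2 fold changes of Rgs6 and Rgs12 turned from 0.03 and 0.12 to −0.57 and −0.38.

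**Figure D4:**
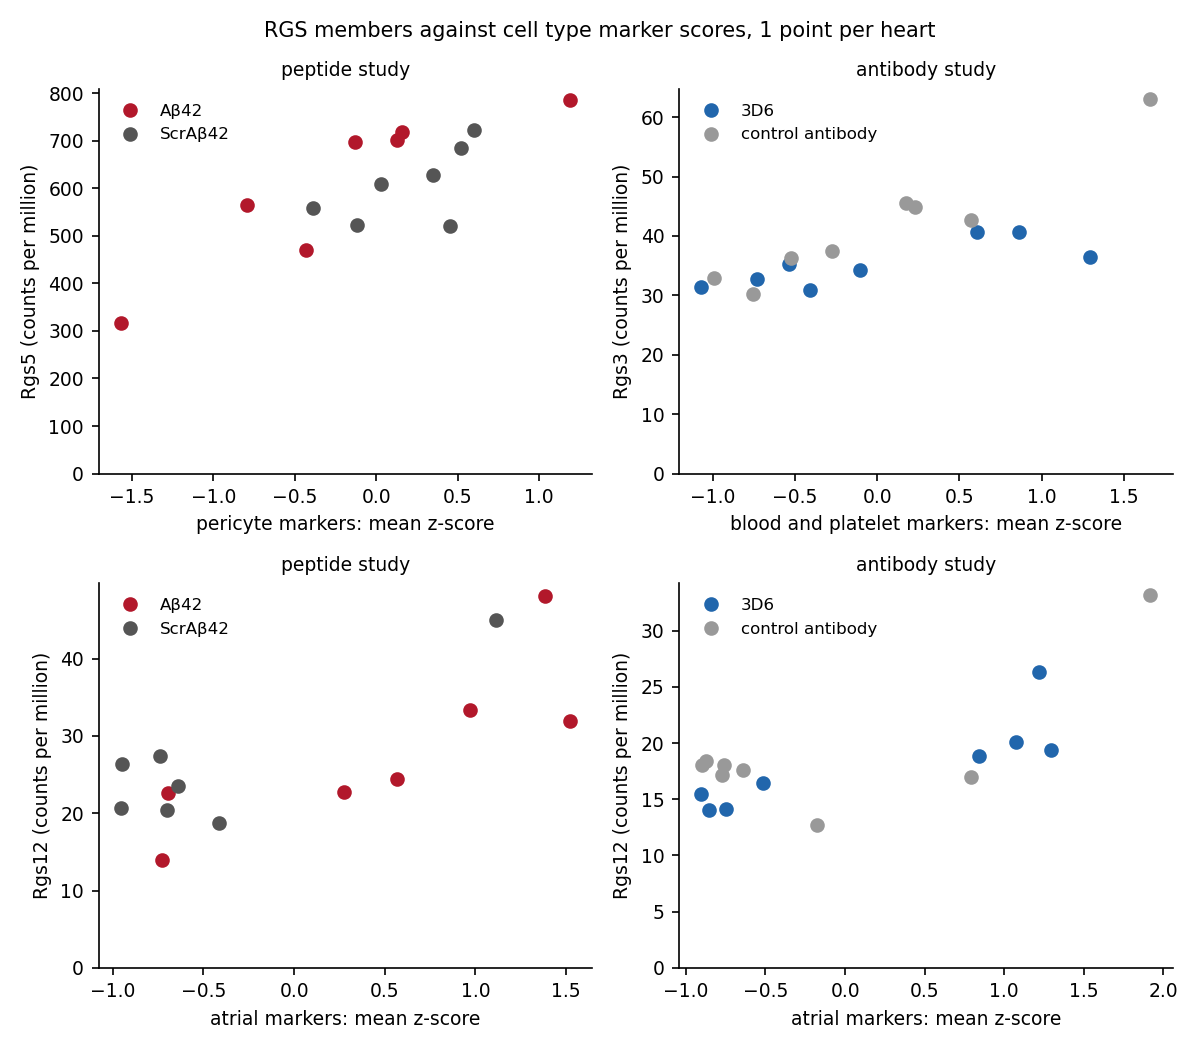
Level of an RGS member in CPM (vertical axes) against the mean z-score of a marker list (horizontal axes), 1 point per heart, for Rgs5 and pericyte markers in the peptide study, Rgs3 and blood and platelet markers in the antibody study, and Rgs12 and atrial markers in both. Rgs5 climbs from 316 to 785 with the pericyte score, and the highest Rgs12 hearts (48.0 and 33.2) lie at the right among the high atrial scores.

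For Rgs2 itself, 0 of 29 relations (15 lists with the peptides and 14 with the antibodies, the atrial list left out) had an adjusted permutation p under 0.05. The smallest adjusted p was that of the endothelial score, at r = −0.70 in the peptide study (rho = −0.44, adjusted permutation p = 0.080 and 0.34) and r = −0.44 in the antibody study (rho = −0.46, adjusted permutation p = 0.080 and 0.24). The former fell to −0.20 without the 2 hearts farthest from the median score and the latter was then −0.51. With the circadian clock genes r was 0.61 in the peptide study (rho = 0.69, adjusted permutation p = 0.15 and 0.14) and 0.07 in the antibody study. With the immediate early genes, which respond to stimulation within minutes, r was 0.40 and −0.17 (adjusted permutation p = 0.40 and 0.75). Of 56 pairs of members, 28 in each study, 0 had an adjusted permutation p under 0.05.

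The single genes most like Rgs2 were sought by the smaller of the r values in the 2 studies, among 11361 genes tested in both. They were Maob, Ccni, Kcnj12, Gm10635, Icmt, Pcdhgb6, Fam120b and Hnrnpul2. Maob, the mitochondrial monoamine oxidase B, came first with r = 0.82 over 14 hearts and 0.77 over 16 hearts (rho = 0.82 and 0.90), and r stayed at 0.77 and 0.87 without the 2 hearts farthest out. Maob had 70.4 to 92.7 CPM in the peptide study and 21.5 to 59.7 CPM in the antibody study. Unlike Rgs2, it had a peptide log2 fold change of 0.09 (SE 0.07), and with 3D6 one of 0.31 (SE 0.15). Ccni, a cyclin, followed with r = 0.72 and 0.69, and Kcnj12, a subunit of the inward rectifier potassium channel, with 0.75 and 0.66. The last 5 had r between 0.57 and 0.74. Without the 2 hearts farthest out, the peptide r of these 7 fell to between 0.17 (Icmt) and 0.52 (Ccni), and the antibody r was 0.51 to 0.82. These genes were picked for their r out of all genes tested, so no p is given, and over all genes the r values with Rgs2 in the 2 studies were unrelated (r = −0.01 across genes, which are not independent).

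**Figure D5:**
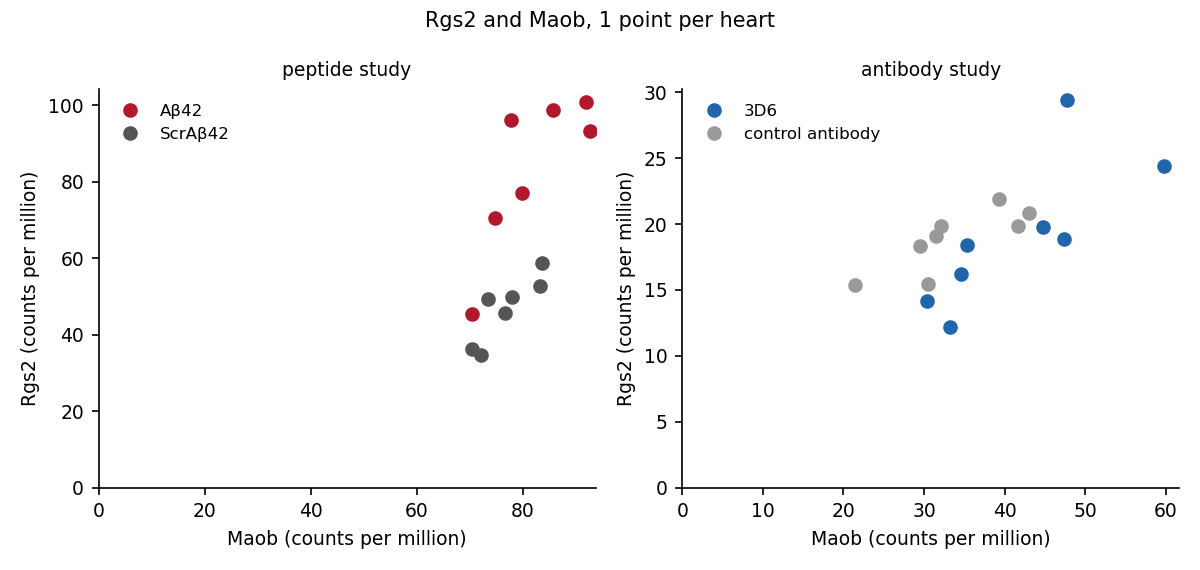
Rgs2 (vertical axes) against Maob (horizontal axes), both in CPM, 1 point per heart, in the peptide study (left) and the antibody study (right). Within each group Rgs2 tends to be higher where Maob is higher, and the Aβ42 hearts lie above the ScrAβ42 hearts at like Maob levels (group means of Rgs2 83.3 and 46.8).

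The antibody study was counted per transcript, which shows the forms behind the gene values. Nearly all Rgs2 reads, 96.1%, were assigned to a coding transcript of 3021 bases, with 96.2% under 3D6 and 96.1% under control antibody. A transcript of 4096 bases took 99.99% of the Rgs5 reads and one of 2941 bases took 99.4% of those of Rgs4. Rgs3 was split, with 47.2% on a coding transcript of 4084 bases, 14.5% on one of 3888 bases and 13.6% on a form that retains an intron. The largest shares were 64.4% for Rgs6, on a transcript of 5588 bases, and 66.0% for Rgs12, on one of 5472 bases. Under 3D6 and control antibody these were 67.7% and 60.4% for Rgs6, and 72.8% and 59.6% for Rgs12. Between hearts they ran from 45.6% to 96.6% for Rgs6 and from 21.5% to 95.1% for Rgs12. For Rgs19, the shares of the coding transcript of 1511 bases were 41.5% under 3D6 and 60.9% under control antibody, but these rest on 9 to 33 reads per heart and the transcript's share ran from 0% to 91.9% between hearts. Salmon divides reads shared by transcripts of a gene by estimate, so small shares are uncertain. The annotation places antisense genes over Rgs3, Rgs6, Rgs12 and Rgs16, and genes on the same strand over Rgs6, Rgs10 and Rgs12, and the library kit keeps strand, although whether the counting used it is not given in the sources used here.

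Of the other 10 RGS genes, Rgs7 and Rgs17 passed the filter in the peptide study and none did in the antibody study. Rgs7, of the same R7 group as Rgs6, had 1.03 to 17.9 CPM with Aβ42 and 0.953 to 9.65 CPM with ScrAβ42, with a fitted difference of 0.85 whose SE of 0.55 leaves it within the spread. Its highest hearts were Abeta42_3457 at 17.9 CPM and ScrAbeta42_3449 at 9.65 CPM. The other Aβ42 hearts had 1.03 to 7.90 CPM and the other ScrAβ42 hearts 0.953 to 3.70 CPM, and the group medians were 5.04 and 2.70 CPM. The part of single hearts in the fitted difference of Rgs7 was not tested. Rgs17 had 1.74 to 3.67 CPM over both peptide groups (−0.02, SE 0.19). Rgs1, Rgs9, Rgs11 and Rgs18 had at most 13 reads in any heart of either study. Rgs8, Rgs13, Rgs20 and Rgs21 had at most 1 read in any heart.

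The wider pathway was read from lists, whose counts stand beside the shares of all genes tested, 3.6% higher and 2.91% lower with Aβ42 and 1.32% higher and 2.32% lower with 3D6. Of 19 tested G protein subunits, 1 was higher at an unadjusted p under 0.05 with Aβ42, Gng2 (2.07, SE 0.65), and of 20 tested with 3D6, 1 was lower, Gnb4 (−0.21, SE 0.09). These and the other genes named for an unadjusted p were picked after their values were seen. The Gq subunits on which Rgs2 acts had log2 fold changes of 0.01 (SE 0.10) for Gnaq and −0.07 (SE 0.07) for Gna11 with Aβ42, and −0.08 (SE 0.11) and −0.06 (SE 0.07) with 3D6. The subunits with the most reads in the peptide study, Gnai2 and Gna12, had differences of −0.01 (SE 0.07) and 0.02 (SE 0.06), and those of the antibody study, Gnas and Gnai2, had 0.07 (SE 0.10) and −0.05 (SE 0.08). Of 16 receptors tested in the peptide study, 1 was lower at an unadjusted p under 0.05, the α1-adrenergic receptor gene Adra1b (−0.25, SE 0.09), and of 17 in the antibody study 2 were higher, Adra1a (0.64, SE 0.29) and Adra1b (0.45, SE 0.19). The muscarinic receptor gene Chrm2 and the sphingosine phosphate receptor gene S1pr1, which had the most reads, had 0.49 (SE 0.23) and −0.06 (SE 0.09) with Aβ42 and 0.28 (SE 0.30) and −0.12 (SE 0.09) with 3D6.

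Of 19 effectors, 2 were higher (Itpr2 and Kcnj3) and 2 lower (Prkca and Rcan1) at an unadjusted p under 0.05 with Aβ42 (6.51% of all genes tested in either direction), and 0 with 3D6 (3.64%). Rcan1, a target of calcineurin signalling, had a log2 fold change of −0.27 (SE 0.10) with Aβ42 and −0.12 (SE 0.22) with 3D6. The effectors with the most reads, the adenylyl cyclase gene Adcy6 and the protein kinase gene Rock2, had 0.04 (SE 0.12) and 0.04 (SE 0.10) with Aβ42, and −0.03 (SE 0.10) and 0.16 (SE 0.16) with 3D6. The list medians were 0.04 for subunits, −0.07 for receptors and 0.04 for effectors with Aβ42, and −0.04, −0.02 and 0.03 with 3D6, beside all-gene medians of 0.00 and −0.01. Among other genes with an RGS domain or a partner role, 15 were tested with Aβ42 and 14 with 3D6, and 0 reached an unadjusted p of 0.05 with edgeR. Arhgef12 and Arhgef1, exchange factors with an RGS domain, had log2 fold changes of −0.08 (SE 0.10) and 0.03 (SE 0.09) with Aβ42, and 0.08 (SE 0.16) and −0.17 (SE 0.14) with 3D6. No gene of any of these lists passed an adjusted p of 0.05 with edgeR. The part of the atrial marker levels, which differed between hearts, in these differences was not tested.

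Rgs2 is known as a gene induced soon after stimulation, so the immediate early genes were read beside it, together with the clock genes that vary with the time of day. Of 22 immediate early genes tested in the peptide study, 1 was higher (Zfp36) and 5 lower at an unadjusted p under 0.05, beside 3.6% and 2.91% of all genes, the latter including Jun (−0.48, SE 0.08) and Ier5 (−0.70, SE 0.15). Over the list, 14 were fitted higher and 8 lower, with a median log2 fold change of 0.10. The 2 with the most reads, Nr4a1 and Dusp1, had differences of 0.28 (SE 0.21) and 0.07 (SE 0.13). When the immediate early score entered the fit, Rgs2 had a log2 fold change of 0.83 (SE 0.15) with Aβ42. Of 23 in the antibody study, 1 was higher (Fos) and 4 were lower (Jund, Atf3, Ier2 and Klf4), beside 1.32% and 2.32%, and those with the most reads, Jund and Klf2, had −0.20 (SE 0.07) and −0.10 (SE 0.09), with 7 of the list fitted higher and 16 lower and a median of −0.07. The clock genes had medians of 0.07 with Aβ42 and 0.07 with 3D6. Of 16 clock genes, Ciart was higher with Aβ42 (0.53, SE 0.14) and Nfil3 lower with 3D6 (−0.33, SE 0.12) at an unadjusted p under 0.05, while Tef and Per1, those with the most reads, had 0.09 (SE 0.08) and 0.07 (SE 0.08) with Aβ42, and Nr1d1 and Dbp had 0.07 (SE 0.06) and 0.06 (SE 0.22) with 3D6.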

How the data were processed

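Per the labels and the study's methods, total RNA of left ventricle was made into stranded libraries and mapped with Salmon to the mouse transcriptome (GRCm38). What the authors deposited were whole counts by gene (peptide study) and estimated counts, or expected counts, by transcript (antibody study), neither normalised. How gene counts were summed in the peptide study is not given in the sources used here. Of the peptide columns, 1 matched no labelled mouse and was not used. Antibody transcripts were collapsed to 56386 genes with GENCODE vM21, which lists 99.21% of them, and then rounded. Each study's genes averaging 10 or more counts a heart entered the quasi-likelihood test of edgeR 4.0.16 (R 4.3.3) with TMM and Benjamini-Hochberg adjustment, two-sided, without covariates. Log2 CPM used a prior count of 2. Per-length levels used transcript lengths weighted by abundance in the antibody study. Permutation tests drew 100000 reassignments within groups, and fewer with 2 hearts left out (Python 3.11.15, scipy 1.17.1). Within the atrial clusters, scores were reassigned over all hearts of a cluster whatever their treatment, exactly where it held fewer than 10. Groups came from the sample titles. The lowest chi-square per degree of freedom between hearts of a group was 3.57, so all libraries were counted separately. Depth of 4478991 to 8310480 counts per heart leaves Rgs14 and Rgs16 unresolved. Alternatives were DESeq2 1.42.0, limma 3.58.1 (voom), other scalings and filters, 3 covariates and leaving out each heart. Code was tested on simulated counts with known changes.

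The members, gene lists, tests and alternatives were chosen with earlier results of these data known, and the relations of members other than Rgs2, the clusters of atrial scores and the alternatives for other members were added after the values were seen. Named genes were the members, other RGS genes with a read, the 8 genes most like Rgs2, and of each list those past an adjusted p of 0.05 (0 genes) and the 2 most abundant. Outside this rule, list genes at an unadjusted p under 0.05, Gnaq and Gna11 were named after their values were seen. Promoter windows came from RefSeq (GRCm38.p6), matched by symbol.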

Additional observations from a re-analysis of the deposited data

Results flagged for a closer look

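Values far from the others of their group were looked for among 48 sets of hearts (12 RGS genes in 4 groups). For normally distributed values chance alone marks about 1 in 20, but CPM can be skewed and the sets share hearts, so this rate is only a guide. The search found 6 values, each the highest heart of its group. For Rgs7, these were heart Abeta42_3457 with 17.9 CPM against 7.90 CPM in the next heart, heart ScrAbeta42_3449 with 9.65 CPM against 3.70 CPM, and heart Con_15 of the control antibody group with 2.96 CPM against 0.995 CPM. For Rgs12, they were heart ScrAbeta42_3448 with 45.1 CPM against 27.4 CPM and heart Con_15 with 33.2 CPM against 18.4 CPM. For Rgs3, it was heart Con_22 with 63.1 CPM against 45.6 CPM. Atrial marker sums were 8387 CPM in heart Abeta42_3457, 31.7 CPM in heart ScrAbeta42_3449, 3652 CPM in heart ScrAbeta42_3448, 2768 CPM in heart Con_15 and 2.13 CPM in heart Con_22, and their part in these values was not tested. No value of Rgs2 was among the 6.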

How the results depend on the processing

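The number of genes called in the peptide study was 0 in 21 of 24 alternatives and 12 with DESeq2, and leaving out single hearts gave 0 to 3 (3 without heart Abeta42_3452, 1 without heart ScrAbeta42_3448). The number of members called there was 0 in 22 of 24 and 1, Rgs2, with DESeq2, and 0 to 1 when single hearts were left out (1 without heart Abeta42_3452). The antibody study gave 0 for both in all 26 alternatives. The peptide log2 fold change of Rgs2 ran from 0.71 (atrial score as covariate) to 0.93, and the antibody one from −0.09 to 0.10, all within 1 SD of the hearts. Of 346 values for other RGS genes, 344 moved by less than 1 SD, and Rgs6 and Rgs12 moved with the atrial score, to −0.57 and −0.38. Genes at an unadjusted p under 0.05 numbered 780 in the peptide study, 1475 without a filter, 883 with the atrial score as covariate (302 higher, against 431 of 780), 1253 with the mitochondrial share as covariate and 608 to 1267 when hearts were left out (1267 without heart ScrAbeta42_3448), and 447 in the antibody study, 1213 without a filter and 256 to 771 when hearts were left out (256 without 3D6_4, 771 without Con_8), with 162 higher of 447, 91 of 529 under total count scaling and 284 of 546 with the mitochondrial share as covariate. Members at such a p numbered 1 in 23 of 24 peptide alternatives and 3 with the atrial score as covariate (Rgs2, Rgs6 and Rgs12), and 0 in 20 of 26 antibody alternatives and 1 in the other 6. Of the 8 genes most like Rgs2, 3 were shared with the first 8 by Spearman's rho and 4 without subtraction of group means. The place of Rgs2 in the order per length was the same with the longest transcript. Without the 2 hearts farthest out, some weak correlations changed sign, among them Rgs2 with clock genes (−0.051) and Rgs5 with pericyte markers (0.13) in the antibody study, and all 7 relations past the threshold fell short of it with fewer hearts. Causes were not tested. No paired analysis was possible because mouse numbers are not shared between groups. Depth limits Rgs10, Rgs14, Rgs16 and Rgs19.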
